A study of Homo sapiens with 14 samples.

Results

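The comparison described here asks what a pool of small interfering RNAs (siRNAs) against PAX8 changed when it was added to a pool against SOX17 in ovarian cancer cells. It set the 2 libraries of OVCAR4 cells that received the PAX8 and SOX17 pools together, called siDual, against the 2 libraries that received the SOX17 pool, called siSOX17. These are 4 of the 14 RNA-seq libraries in the series, and 21032 of the 58219 genes in the count table passed the filter on low counts and were tested. OVCAR4 is an established line of human cancer cells used as a model of high-grade serous ovarian carcinoma, and siRNAs work by guiding the cleavage of messenger RNAs that they match.

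All groups were grown and transfected alike according to the labels. Reverse transfection used 300000 cells and 120 nM siRNA, fresh medium followed after 24 hours, and RNA was taken after 72 hours. The same PAX8 pool was also given on its own, in the 2 siPAX8 libraries, and these were set against the 4 control libraries, siNT1 and siNT2, which received non-targeting pools. The siMECOM and siWT1 libraries entered no contrast. They took part in the filter on low counts, the scaling, the mean level of each gene and the estimate of the spread between libraries. The labels do not say whether siDual received 120 nM of each pool or of both together. Whether paired libraries came from separate transfections is also not stated, so p-values measure only the spread between these libraries. A lower level of a transcript in a bulk sample can come from fewer cells of a kind or from less RNA per cell, and the data cannot tell these apart.

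PAX8 is a paired-box transcription factor needed for the development of the thyroid, the kidney and the Müllerian duct, which gives rise to the oviduct and uterus. SOX17 is a transcription factor of the SOX family, known for its part in endoderm and in the female reproductive tract. Both are made by the secretory cells of the fallopian tube, from which high-grade serous carcinoma is thought to arise, and PAX8 is a standard marker of that tumour.

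Depth was even, at 41107918 to 47648629 counts in the 4 libraries and 40832825 to 49803860 over all 14. The share of counts from mitochondrially encoded genes was 10.98% and 10.27% in siDual and 10.01% and 10.24% in siSOX17, so it hardly moved with the comparison. In siPAX8 that share was 10.34% and 9.271%, against 5.339% to 6.125% in the controls. It was 9.701% and 8.58% in siMECOM and 9.288% and 7.914% in siWT1, so every group with a targeting pool lay above the controls. All 10 genes listed as markers of the serous line, among them EPCAM, KRT7 and MUC16, reached at least 10 CPM in each of the 4 libraries. WT1 was not on that list and was close to the detection limit, as given below. CPM values are counts scaled for library size and composition, and they are not divided by gene length.

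The PAX8 pool lowered its target in cells with SOX17 knockdown. PAX8 (chr2:113215997-113278950, minus strand, hg38) had 52.8 and 50.6 CPM in siDual, against 266 and 274 CPM in siSOX17. Both siDual libraries lay far below both siSOX17 libraries, and the siDual mean was 19.2% of the siSOX17 mean. The log2 fold change, siDual over siSOX17, was -2.38 ± 0.09 (standard error) with an edgeR quasi-likelihood adjusted p of 2.36e-12. With the PAX8 pool given alone, PAX8 averaged 35.5 ± 3.9 CPM in siPAX8 (SD, n = 2) and 205 ± 15 CPM in the controls (SD, n = 4). The log2 effect there was -2.53, and the effect with SOX17 knockdown minus that without it, 0.14 ± 0.11, did not pass the test (edgeR adjusted p = 0.393). The PAX8 level that remained was higher in both siDual libraries than in both siPAX8 libraries, which had 32.8 and 38.3 CPM. PAX8-AS1, a transcript on the opposite strand, fell by 1.90 on the log2 scale in siDual (edgeR adjusted p = 6.28e-11), and without a stated strand its reads cannot be told apart from those of PAX8.

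SOX17 itself (chr8:54457935-54460888, plus strand) was low in both groups. It had 15.9 and 17.7 CPM in siDual and 15.7 and 13.1 CPM in siSOX17, against 104 to 119 CPM in the controls. The difference between siDual and siSOX17 did not pass the test (log2 fold change 0.23 ± 0.12, edgeR adjusted p = 0.228). MECOM, which encodes a zinc finger factor also studied in this series, had 47.5 and 51.1 CPM in siDual and 45.6 and 43.6 CPM in siSOX17, a difference of 0.14 ± 0.15 on the log2 scale that did not pass the test (edgeR adjusted p = 0.597). WT1, the Wilms tumour factor, was close to the detection limit, with 13 counts in siDual and 15 in siSOX17, a ratio of 0.823 with an exact 95% interval of 0.36 to 1.85 that covers counting error only.

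**Figure D1:**
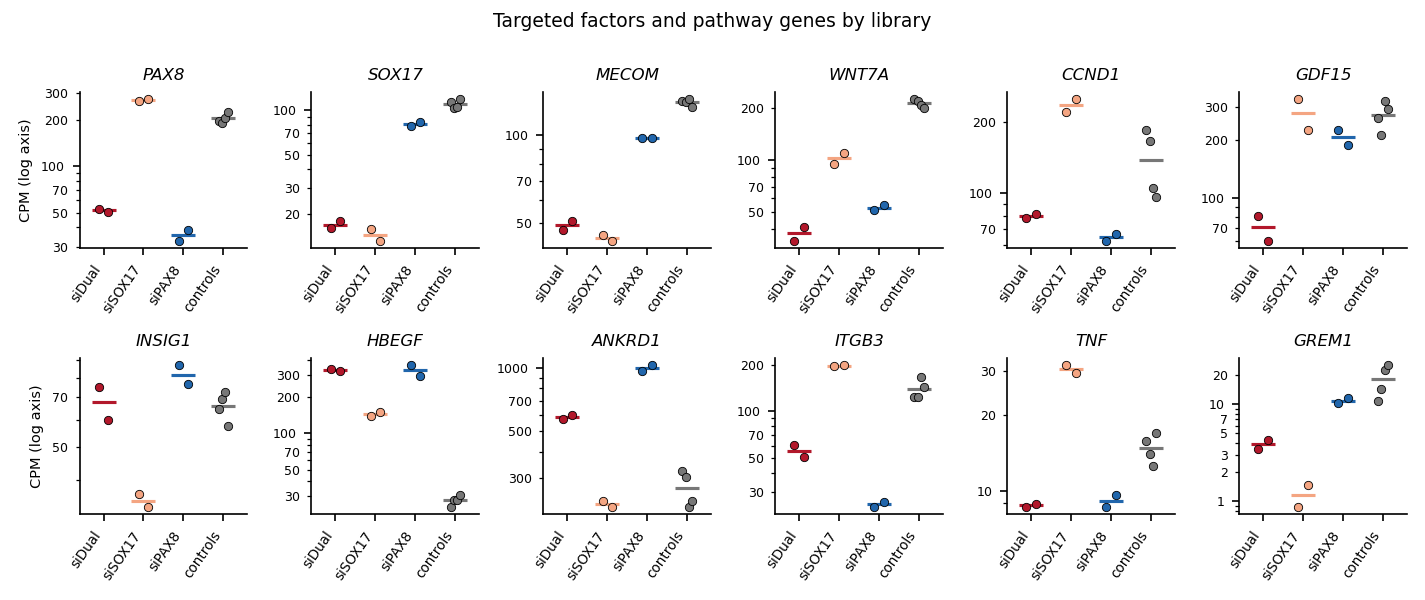
Scaled CPM on a log axis for 12 genes, with a point for each library and a bar for each group mean, in siDual, siSOX17, siPAX8 and the 4 controls (siNT1 and siNT2). PAX8, WNT7A, CCND1, GDF15, ITGB3 and TNF sit lower in siDual than in siSOX17, INSIG1, HBEGF, ANKRD1 and GREM1 sit higher, and SOX17 is low in both.

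Adding the PAX8 pool changed 3297 genes at an edgeR adjusted p under 0.05, which was 15.7% of those tested. Of these, 1652 rose in siDual (7.85% of genes tested) and 1645 fell (7.82%), and the median log2 fold change over all genes tested was 0.01. Most of the changes were small: 326 genes rose by at least 2-fold (1.55%) and 415 fell by at least 2-fold (1.97%). Given alone, the same pool changed 10989 genes against the controls (52.2%), with 5653 higher (26.9%) and 5336 lower (25.4%), and 8.02% of genes rose and 6.49% fell by at least 2-fold. The typical size of a log2 difference, the median of its absolute value over all genes, was 0.204 for siDual against siSOX17 and 0.384 for siPAX8 against controls. The number of genes called rested on having both libraries of each group. Without siDual replicate 2 it was 1822 (873 higher and 949 lower), and without siSOX17 replicate 2 it was 2081 (1012 higher and 1069 lower). Leaving out siSOX17 replicate 1 left 988 genes called higher. In 54.9% of all genes tested the siDual and siSOX17 libraries did not overlap, so a lack of overlap is common with 2 libraries on each side.

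CRYAB (chr11:111908565-111923722, minus strand), a small heat shock protein that binds unfolded proteins, had 54.8 and 46.7 CPM in siDual, against 505 and 418 CPM in siSOX17. Its log2 fold change was -3.19 ± 0.13 (edgeR adjusted p = 4.3e-12). The siDual level was also far below the 255 to 277 CPM of the controls, while siSOX17 was above them. CRYAB shares positions with HSPB2 and C11orf52 on the opposite strand, and of these HSPB2 fell by 1.72 (edgeR adjusted p = 0.0127) and C11orf52 had a log2 fold change of 0.25 that did not pass the test (edgeR adjusted p = 0.191).

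RAPGEF3 (chr12:47734367-47771040, minus strand), also called EPAC1, is an exchange factor for the small GTPase Rap that cyclic AMP switches on. It had 45.3 and 36.5 CPM in siDual, against 236 and 240.0 CPM in siSOX17 (log2 fold change -2.54 ± 0.10, edgeR adjusted p = 4.3e-12). The controls had 65.2 to 84.5 CPM, so RAPGEF3 lay above the controls in siSOX17 and below them in siDual. FGF18 (chr5:171419656-171457623, plus strand), a secreted fibroblast growth factor, had 1.52 and 1.64 CPM in siDual, against 13.8 and 10.6 CPM in siSOX17 (log2 fold change -2.94 ± 0.16, edgeR adjusted p = 2.01e-10). The controls had 59.4 to 76.5 CPM, so FGF18 was already low under SOX17 knockdown and lower still with both pools. KLHL14 (chr18:32672671-32773062, minus strand), a kelch family adaptor of ubiquitin ligases, had 2.61 and 2.59 CPM in siDual and 18.7 and 15.7 CPM in siSOX17 (log2 fold change -2.73 ± 0.14, edgeR adjusted p = 1.52e-10). In siPAX8 it had 0.658 and 0.334 CPM, below siDual. The antisense lncRNA AC012123.1 lies over KLHL14 and AC004241.1 over RAPGEF3. Both fell alongside them, by 2.71 and 2.66 on the log2 scale, and their reads cannot be separated from those of the genes they overlap.

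The other genes here belong, with PAX8 and the genes above, to the 12 largest decreases among protein-coding genes whose log2 CPM averaged 1 or more over the 14 libraries. MAL, a membrane protein of apical transport, had 0.612 and 1.15 CPM in siDual, against 6.79 and 8.83 CPM in siSOX17. TLL2, a tolloid-like metalloprotease, had 1.94 and 2.54 CPM in siDual, against 13.8 and 17.9 CPM in siSOX17. LMCD1, a LIM domain cofactor of GATA factors, had 9.26 and 7.45 CPM in siDual and 41.3 and 45.6 CPM in siSOX17. In each of these 3 genes the siSOX17 libraries were also above all 4 controls, while siDual lay within or below the control range. LIX1, named for its expression in the limb, had 4.68 and 4.12 CPM in siDual and 22.9 and 21.7 CPM in siSOX17. AGMAT, annotated as the mitochondrial enzyme agmatinase, and TMEM101, a membrane protein, were both under 1 CPM in siDual, at log2 fold changes of -2.73 and -2.86. TMEM101 was under 1 CPM in siSOX17 as well, so its change rests on few reads. It met the limit on mean level only through other groups. LRRN4, a leucine-rich repeat membrane protein, had 3.81 and 4.23 CPM in siDual, against 19.2 and 21.6 CPM in siSOX17 (log2 fold change -2.34 ± 0.16, edgeR adjusted p = 6.33e-09). With the PAX8 pool alone the change in LRRN4 did not pass the test (edgeR adjusted p = 0.621), with 1.36 and 1.67 CPM in siPAX8 and 1.41 to 1.93 CPM in the controls.

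The 12 largest increases were chosen with the same limit on level. IL33, an alarmin of the interleukin-1 family that is held in the nucleus, had 50 counts in siDual and 2 in siSOX17. The ratio of 23.7 had an exact 95% interval of 6.24 to 201 that covers counting error only. IL33 was at 18.8 and 23.3 CPM in siPAX8 and 2.10 to 2.57 CPM in the controls. In siDual, at 0.426 and 0.765 CPM, it stayed below the controls. IL33 thus met the limit on mean level only through groups outside siDual and siSOX17. KRT6A (chr12:52487174-52493257, minus strand), a keratin of stressed and stratified epithelia, had 7.53 and 12.6 CPM in siDual, against 0.697 and 1.72 CPM in siSOX17 (log2 fold change 3.08 ± 0.29, edgeR adjusted p = 4.13e-07). KRT6A has near-identical copies whose reads the counting may have divided, so its level is uncertain. PI3 (chr20:45174876-45176544, plus strand), which encodes the protease inhibitor elafin, had 44.2 and 59.9 CPM in siDual and 12.6 and 12.7 CPM in siSOX17. Its log2 fold change was 2.05 ± 0.23 (edgeR adjusted p = 3.73e-06), and siPAX8 was higher than siDual at 103 and 118 CPM.

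The forkhead factor gene FOXS1 had 19.6 and 14.6 CPM in siDual and 2.69 and 2.39 CPM in siSOX17 (log2 fold change 2.75 ± 0.20, edgeR adjusted p = 8.95e-09). It was at 7.84 and 5.28 CPM in siPAX8 and under 1 CPM in every control, so its level was highest in siDual of these groups. RIPOR2, an inhibitor of the GTPase RhoA, showed the same order, with 8.99 and 9.83 CPM in siDual, 1.84 and 2.04 CPM in siSOX17 and 5.12 and 5.44 CPM in siPAX8. A2M, the broad protease inhibitor alpha-2-macroglobulin, had 7.42 and 8.19 CPM in siDual, against 1.07 and 1.14 CPM in siSOX17. The remaining increases were in CSPG4, a cell surface proteoglycan, at a log2 fold change of 2.20. GGT5, a gamma-glutamyl transferase that cleaves leukotriene C4, was at 2.30, LURAP1L at 2.21, and DIO2, the deiodinase that activates thyroid hormone, at 2.10. SOX5, a SOX family factor, and FLI1, an ETS factor of blood and endothelium, were at 2.10 and 2.04. SOX5, FLI1, DIO2 and CSPG4 were below all 4 controls in siSOX17. In siDual, SOX5 and FLI1 were still below all 4 controls, with FLI1 at 3.62 and 3.26 CPM in siDual and 9.33 to 15.3 CPM in the controls. The lncRNA SENCR, antisense to FLI1, had a log2 fold change of 3.601, and the 2 cannot be told apart without strand. The lncRNAs LINC01411 and CYP1B1-AS1 rose by 1.88 and 1.48, and CYP1B1, on the strand opposite to CYP1B1-AS1, rose by 1.61. CCDC183-AS1, the third lncRNA among the largest decreases, fell by 2.34.

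**Figure D2:**
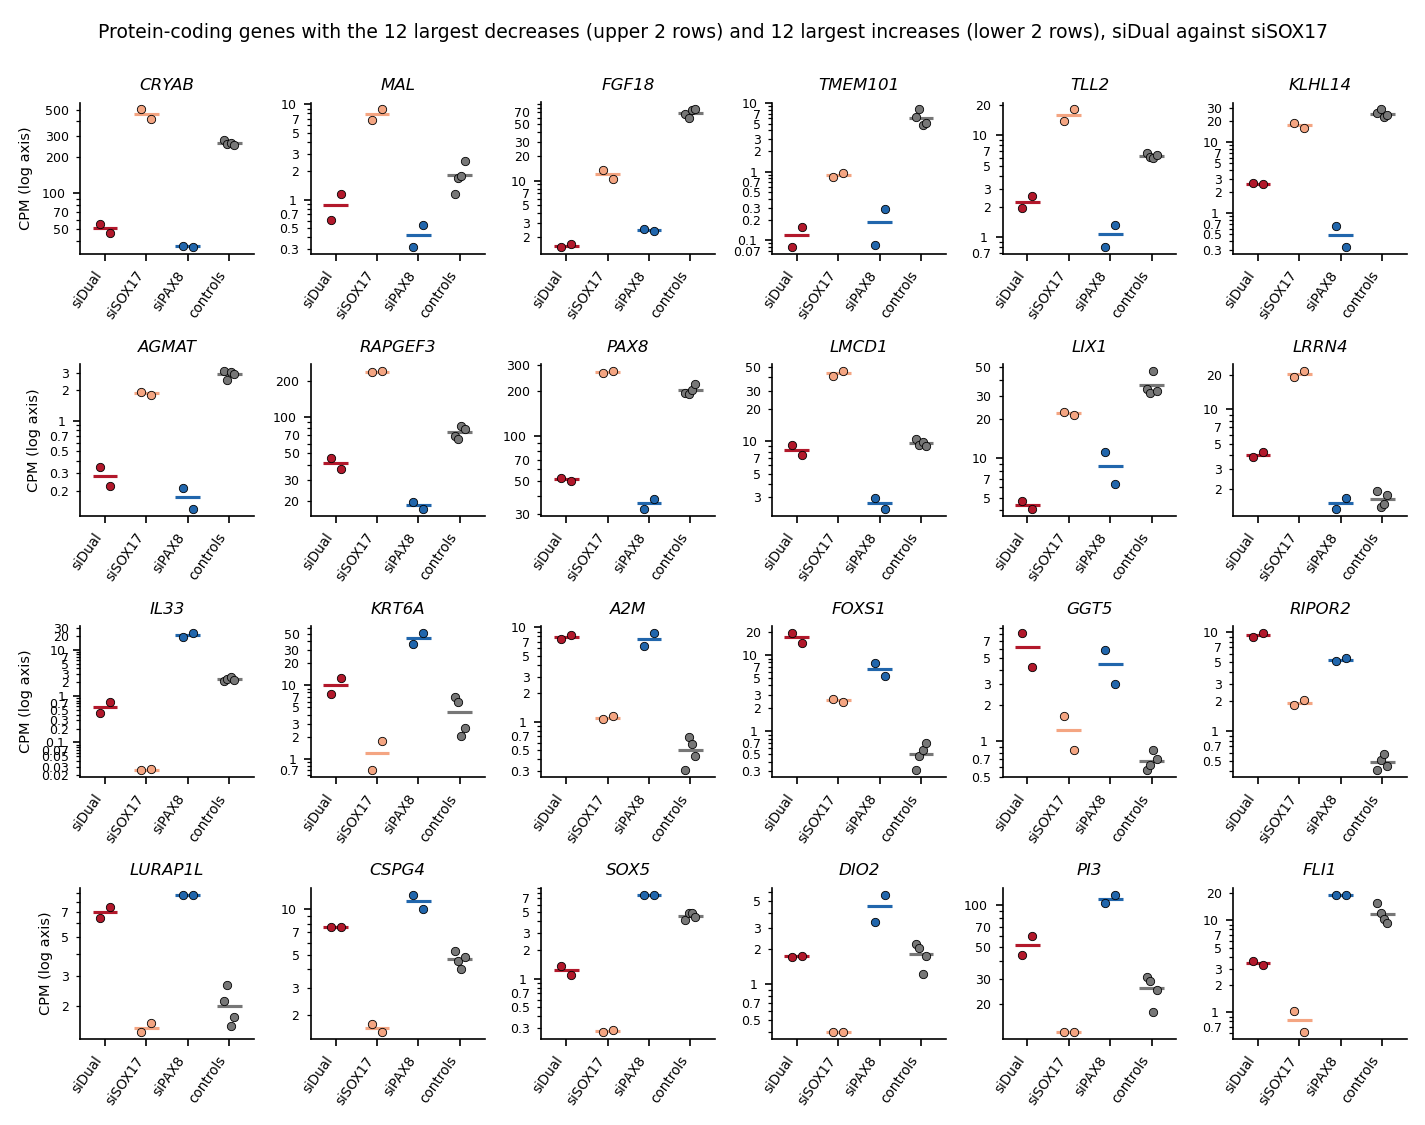
Scaled CPM on a log axis for the 12 protein-coding genes with the largest decreases and the 12 with the largest increases between siDual and siSOX17, with a point for each library and a bar for each group mean. The 2 siDual points lie apart from the 2 siSOX17 points in each panel, which the rule for choosing these genes required, and the siPAX8 and control points show where each level stood without SOX17 knockdown.

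Cell cycle genes fell further with the PAX8 pool, by small steps. E2F factors switch on the genes of the G1/S transition and of DNA replication, and mitotic genes are often controlled through a promoter element called the cell cycle genes homology region (CHR). Of 32 genes of G1/S and DNA replication, 19 fell, none rose and 13 did not pass the test, with a median log2 fold change of -0.34. Of 30 genes of G2/M and mitosis, 18 fell, none rose and 12 did not pass, with a median of -0.36. Over all genes tested 7.82% were called lower and the median was 0.01. In both lists the count of genes that rose was 0 by edgeR, by DESeq2 and at an unadjusted edgeR p under 0.05. The count of genes that fell was 14 to 17 for G1/S and 15 to 19 for G2/M when a library of either group was left out.

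MCM6, a subunit of the replicative helicase, had 12.3 and 10.8 CPM in siDual, against 24.8 and 25.7 CPM in siSOX17 (log2 fold change -1.13 ± 0.09, edgeR adjusted p = 4.39e-08). PCNA, the sliding clamp of DNA polymerase, had 34.3 and 35.6 CPM in siDual and 74.6 and 76.3 CPM in siSOX17 (log2 fold change -1.11 ± 0.07, edgeR adjusted p = 4.4e-09). These were the only members of the G1/S list to fall by at least 2-fold. Among mitotic genes, CCNA2, which encodes cyclin A2, had 35.1 and 30.3 CPM in siDual and 64.9 and 64.7 CPM in siSOX17, a log2 fold change of -0.99 ± 0.09. CDC25B, a phosphatase that activates CDK1, fell by 0.82 on the log2 scale, and CDC20, an activator of the anaphase promoting complex, fell by 0.44. CCNE1, which encodes cyclin E1 and was singled out after its values were seen, had 22.0 and 25.5 CPM in siDual and 26.3 and 27.8 CPM in siSOX17, and did not pass the test (edgeR adjusted p = 0.186).

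The PAX8 pool alone had a much larger effect on the same genes. All 32 G1/S genes and all 30 G2/M genes fell in siPAX8 against the controls, with medians of -1.71 and -1.68, where 25.4% of all genes fell. The difference between the effects with and without SOX17 knockdown passed the test in the positive direction in 32 of 32 and 30 of 30 genes, against 12.0% of all genes tested. Relative to the controls, the median log2 ratio of mean CPM over the G1/S genes was -1.57 in siDual, -1.20 in siSOX17 and -1.71 in siPAX8. Over the G2/M genes it was -1.21 in siDual, -0.81 in siSOX17 and -1.68 in siPAX8. The siDual medians lay between those of the single knockdowns.

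**Figure D3:**
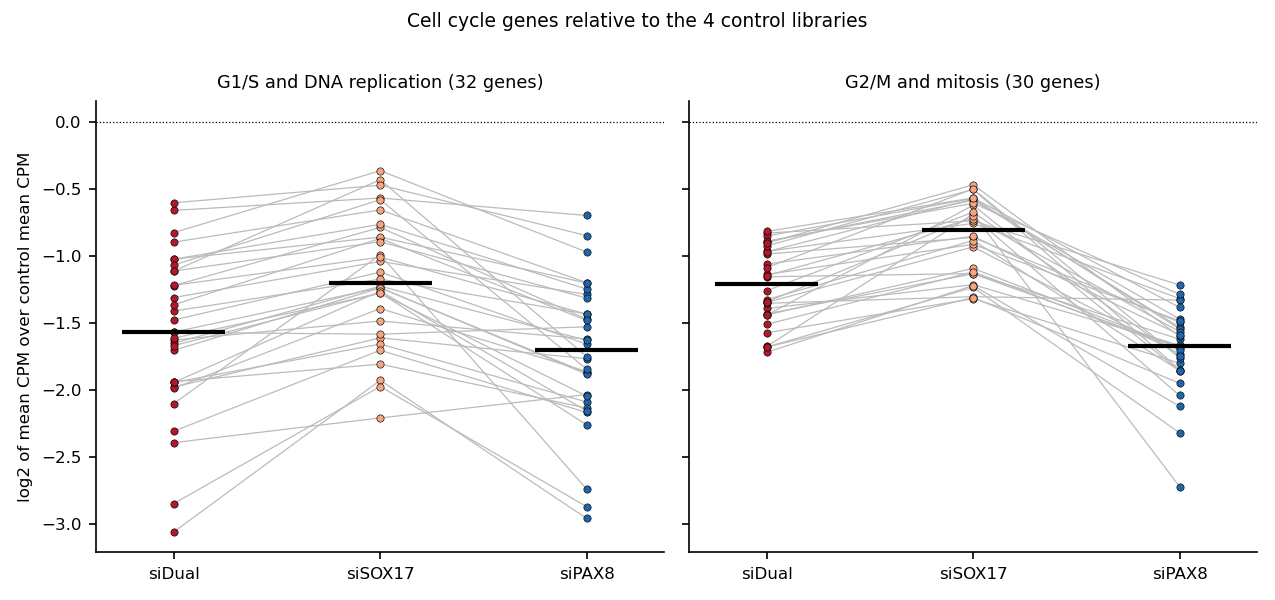
Log2 ratio of group mean CPM to the control mean for 32 G1/S and 30 G2/M genes in siDual, siSOX17 and siPAX8, with a grey line joining each gene and a black bar at the median. The medians are -1.57, -1.20 and -1.71 for G1/S and -1.21, -0.81 and -1.68 for G2/M, so most genes dip in siDual relative to siSOX17 and siPAX8 has the lowest medians.

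Promoters of these cell cycle genes are shown because their members moved together and because the E2F and CHR letters are easily seen in them. The sequences are from RefSeq (GRCh38.p14), on the strand of the gene and read from its 5′ to its 3′ side, and give the 250 bases before the annotated start. MCM6 lies at chr2:135876444-135876693 (minus strand) and PCNA at chr20:5126623-5126872 (minus strand). CDC20 lies at chr1:43358731-43358980 (plus strand). Capitals mark TTTGGCGC in MCM6, the reverse complement of TTTCCCGC in PCNA, and TTTGAA or its reverse complement in CDC20.
MCM6: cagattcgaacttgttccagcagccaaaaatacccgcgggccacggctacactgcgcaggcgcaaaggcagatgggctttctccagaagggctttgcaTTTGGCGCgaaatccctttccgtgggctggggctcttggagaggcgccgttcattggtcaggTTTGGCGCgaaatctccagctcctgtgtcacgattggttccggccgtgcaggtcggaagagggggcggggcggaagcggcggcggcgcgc
PCNA: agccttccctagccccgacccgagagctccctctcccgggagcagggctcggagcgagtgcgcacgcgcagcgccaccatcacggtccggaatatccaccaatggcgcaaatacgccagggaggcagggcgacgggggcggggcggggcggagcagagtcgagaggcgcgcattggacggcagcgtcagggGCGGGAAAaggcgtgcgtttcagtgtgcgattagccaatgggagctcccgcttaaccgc
CDC20: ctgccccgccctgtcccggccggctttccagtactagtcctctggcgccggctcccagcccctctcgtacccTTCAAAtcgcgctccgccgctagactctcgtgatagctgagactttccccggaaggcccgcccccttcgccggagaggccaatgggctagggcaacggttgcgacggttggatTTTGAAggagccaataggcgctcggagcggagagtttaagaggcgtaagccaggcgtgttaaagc

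Over windows from 250 bases before to 50 after the start, searched on both strands, TTTGGCGC was found in 7 of 27 G1/S promoters (25.9%) and in 1.04% of 11268 protein-coding genes tested. TTTCCCGC was found in 8 of the 27 (29.6%) and in 2.48% of the genes tested. TTTGAA was found in 15 of 24 G2/M promoters (62.5%) and in 9.74% of the genes tested. Both lists are gene classes tied above to E2F or the CHR, so these shares describe the lists and not the changes seen here. In the same order, these sequences were in 1.52%, 3.89% and 12.3% of the 1054 promoters of genes called lower. In the 1116 of genes called higher they were in 0.896%, 1.43% and 9.77%. At 2-fold or more, the shares were 0.513%, 1.03% and 8.21% of 195 lower, and 0.00%, 2.27% and 18.8% of 176 higher. The core GCGTGAC, searched for as a paired-domain type sequence, was in 4.17% of the 1054 promoters of genes called lower, 2.96% of the 1116 of genes called higher and 3.74% of all genes tested. A promoter could hold more than 1 of these sequences. A match describes the letters only, and its absence says nothing about whether a factor binds.

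Of 31 growth factor and MAPK feedback genes, 6 rose, 2 fell and 23 did not pass the test, against 7.85% higher and 7.82% lower over all genes. HBEGF, a ligand of the EGF receptor, had 339 and 323 CPM in siDual, against 137 and 149 CPM in siSOX17 (log2 fold change 1.21 ± 0.11, edgeR adjusted p = 1.93e-07). The siPAX8 libraries, at 363 and 297 CPM, were at about the siDual level, and the controls had 24.5 to 30.7 CPM. CCND1, which encodes cyclin D1, had 78.4 and 81.0 CPM in siDual, against 221 and 251.2 CPM in siSOX17 (log2 fold change -1.57 ± 0.09, edgeR adjusted p = 1.02e-09). The SPRY1 gene, an inhibitor of receptor signalling, rose by 0.80. The count of higher members was 3 without siDual replicate 2 or without siSOX17 replicate 1, and that of lower members was 4 without siSOX17 replicate 1.

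IL11 and ANGPTL4 had large differences between the PAX8 pool's effects with and without SOX17 knockdown. IL11, a cytokine of the interleukin-6 family, had 89.2 and 92.9 CPM in siDual and 96.4 and 116 CPM in siSOX17, which did not pass the test (log2 fold change -0.22 ± 0.11, edgeR adjusted p = 0.194). In siPAX8 it had 21.5 and 22.4 CPM, against 1.496 to 3.02 CPM in the controls. ANGPTL4, a secreted inhibitor of lipoprotein lipase, had 50.8 and 52.0 CPM in siDual and 29.9 and 36.2 CPM in siSOX17, a smaller rise (log2 fold change 0.64 ± 0.11, edgeR adjusted p = 0.000542) than the 4.04 of siPAX8 over the controls. These differences were -3.602 for IL11 and -3.40 for ANGPTL4 on the log2 scale, both called.

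Of 28 inflammatory cytokines, chemokines and NF-kB targets, 11 fell, 4 rose and 13 did not pass the test, with a median of -0.31. Over all genes 7.85% rose and 7.82% fell. TNF, the tumour necrosis factor cytokine, had 8.68 and 8.93 CPM in siDual, against 31.5 and 29.3 CPM in siSOX17 (log2 fold change -1.79 ± 0.16, edgeR adjusted p = 2.44e-07). The siSOX17 level was above the 12.6 to 17.1 CPM of the controls, and the siDual level below it. CXCL1, a neutrophil chemokine, had 17.6 and 28.9 CPM in siDual and 81.3 and 67.3 CPM in siSOX17. PTGS2, the inducible cyclooxygenase, rose by 2.58, although its level was only 1.12 and 1.51 CPM in siDual and 0.174 and 0.265 CPM in siSOX17. The count of lower members was 4 without siDual replicate 1, equal to the higher count of 4 there, and 6 without siSOX17 replicate 1 or without siSOX17 replicate 2.

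Of 37 interferon-stimulated genes, 15 fell, 1 rose and 21 did not pass the test, with a median of -0.42. The shares over all genes were 7.82% lower and 7.85% higher. HERC5, an interferon-induced ligase for the ubiquitin-like protein ISG15, had 2.32 and 2.84 CPM in siDual, against 4.35 and 5.33 CPM in siSOX17 (log2 fold change -0.90 ± 0.16, edgeR adjusted p = 0.000442). GBP2, a guanylate-binding protein, rose by 0.51, and without siSOX17 replicate 1 the count of higher members was 3. Without 1 library, between 11 and 18 of these genes were called lower. Given alone, the PAX8 pool left 13 of the 37 higher and 11 lower than in the controls, where 26.9% of all genes were higher and 25.4% lower. Of 17 antigen presentation genes, 4 fell (the immunoproteasome genes PSMB9 and PSMB10, the peptide transporter gene TAP1 and the peptidase gene ERAP1) and none rose by edgeR or DESeq2, while 2 were higher at an unadjusted edgeR p under 0.05. The count of those that fell was 1 without siDual replicate 1, 2 without siSOX17 replicate 1 and 8 without siSOX17 replicate 2. PSMB9 and TAP1 overlap on opposite strands, so the reads they share cannot be told apart without a stated strand. B2M, the light chain of class I molecules, did not pass the test.

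Genes linked to epithelial-mesenchymal transition (EMT) mostly rose where they passed the test. Of 23 tested, 10 rose, 2 fell and 11 did not pass, with a median of 0.45, against 7.85% higher and 7.82% lower over all genes. MMP2, a matrix metalloproteinase, had 14.7 and 21.0 CPM in siDual, against 4.48 and 6.55 CPM in siSOX17 (log2 fold change 1.70 ± 0.28, edgeR adjusted p = 0.000292). COL5A1, a chain of type V collagen, had 95 and 80.4 CPM in siDual and 40.7 and 46.0 CPM in siSOX17, a log2 fold change of 1.02. The matrix genes TNC (tenascin C) and FN1 (fibronectin) went the other way. FN1 had 8.12 and 8.62 CPM in siDual, against 17.0 and 17.1 CPM in siSOX17, and TNC fell by 1.07 on the log2 scale. VIM, ZEB1 and SNAI1 did not pass the test. Of the fibroblast markers, LUM and COL1A1 also rose, though neither call held without siSOX17 replicate 1 (edgeR adjusted p of 0.0617 and 0.169), and the marker list summed to 160 and 129 CPM in siDual and 170 and 150 CPM in siSOX17, and its part in these changes was not tested. In siPAX8 against the controls 17 of the 23 rose, where 26.9% of all genes rose and 25.4% fell. None of the 23 fell there, at an unadjusted edgeR p under 0.05 either, and FN1 and TNC were among those that rose.

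Basement membrane, collagen and integrin genes moved both ways, with 7 of 35 higher, 11 lower and 17 not passing. The shares over all genes were 7.85% higher and 7.82% lower. ITGB3, the integrin beta-3 chain, had 60.2 and 50.5 CPM in siDual, against 196 and 198 CPM in siSOX17 (log2 fold change -1.83 ± 0.10, edgeR adjusted p = 2.01e-10). ITGB8 had 140.2 and 137 CPM in siDual and 324 and 288 CPM in siSOX17. The siDual level of ITGB8 lay within the 128 to 180.4 CPM of the controls. ITGA2, the alpha chain of a collagen receptor, had 43.4 and 59.4 CPM in siDual, against 16.9 and 20.4 CPM in siSOX17, and LAMA4, a laminin chain, rose by 1.21. The count of lower members was 5 without siDual replicate 2 and 6 without siSOX17 replicate 1.

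The simple keratins KRT8 and KRT18, which pair in the filaments of glandular epithelium, rose together. Their annotated positions overlap on opposite strands, and without a stated strand the reads they share cannot be told apart. KRT8 had 9463 and 8052 CPM in siDual and 5288 and 5310.0 CPM in siSOX17 (log2 fold change 0.73 ± 0.13, edgeR adjusted p = 0.000794). KRT18 had 5262 and 4383 CPM in siDual and 2788 and 2994 CPM in siSOX17 (log2 fold change 0.74 ± 0.16, edgeR adjusted p = 0.00255). In siPAX8 and in the controls both genes were lower than in siDual, so of these groups siDual had the highest levels. The claudin genes CLDN10 and CLDN16 fell, by 1.43 and 1.296. Over the 32 genes of epithelial junctions and simple keratins, 6 rose and 8 fell, and the median was -0.04. Among all genes tested, 7.85% rose and 7.82% fell. The count of higher members was 3 without siDual replicate 2, without siSOX17 replicate 1 or without siSOX17 replicate 2, and that of lower members was 5 without siDual replicate 2. Of 9 keratinocyte genes tested, KRT6A, KRT16 and KRT5 rose and none fell, by edgeR, DESeq2 or at an unadjusted edgeR p under 0.05. KRT16 had 6.87 and 7.16 CPM in siDual and 1.72 and 2.10 CPM in siSOX17.

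Genes of the serous ovarian and Müllerian identity did not move as a block. Of 29 tested, 7 rose, 4 fell and 18 did not pass, with a median of 0.07, against 7.85% higher and 7.82% lower over all genes. WNT7A, a Wnt ligand of the Müllerian epithelium, had 34.1 and 41.0 CPM in siDual and 94.9 and 110 CPM in siSOX17 (log2 fold change -1.44 ± 0.09, edgeR adjusted p = 2.52e-09). The controls had 199 to 225 CPM, above both groups. CRABP2, which carries retinoic acid, had 113 and 120 CPM in siDual, against 44.5 CPM in each siSOX17 library, and the kallikrein gene KLK5 had 160.2 and 137 CPM in siDual, against 70.1 and 67.9 CPM in siSOX17. The count of higher members was 4 without siDual replicate 1, without siDual replicate 2 or without siSOX17 replicate 1. PAX8 is not a member of this list.

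Of 28 genes tied to PAX8 in thyroid and kidney, 19 were tested. FGF18, TG, CDH16, CA12, E2F1 and CA2 fell, DIO2, FGF9 and WNT4 rose, and 10 did not pass the test. Among all genes tested, 7.82% fell and 7.85% rose. CDH16, a cadherin of kidney and thyroid and singled out after its values were seen, had 0.931 and 1.15 CPM in siDual, against 5.35 and 7.19 CPM in siSOX17 (log2 fold change -2.58 ± 0.27, edgeR adjusted p = 1.48e-06). CA12, a membrane carbonic anhydrase, had 11.4 and 13.3 CPM in siDual and 27.0 and 28.4 CPM in siSOX17, both far below the 86.3 to 131 CPM of the controls. TG, which encodes thyroglobulin, had 3 counts in siDual and 21 in siSOX17. The ratio of 0.136 had an exact 95% interval of 0.0259 to 0.454 that covers counting error only. The TG call did not hold without siDual replicate 1, siDual replicate 2 or siSOX17 replicate 1. The FGF9 call was also lost without siDual replicate 2 or siSOX17 replicate 1 (adjusted p of 0.126 and 0.125), and the CA2 call without any of the 4 libraries (0.0622 to 0.224).

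Cholesterol synthesis genes rose by small amounts. Of 22 tested, 13 rose, none fell and 9 did not pass, with a median of 0.31, against 7.85% higher and 7.82% lower over all genes. None fell by DESeq2 or at an unadjusted edgeR p under 0.05 either, where 19 rose. INSIG1, which retains the sterol sensor in the endoplasmic reticulum, had 75.3 and 60.2 CPM in siDual, against 36.2 and 33.3 CPM in siSOX17 (log2 fold change 0.96 ± 0.13, edgeR adjusted p = 2.22e-05). MSMO1, a sterol demethylation enzyme, had 83.0 and 82.4 CPM in siDual and 52.3 and 48.4 CPM in siSOX17. In siDual, MSMO1 was above all 4 controls and INSIG1 within or above their range, while in siSOX17 INSIG1 was below all 4. The count of higher members depended on single libraries, being 4 without siDual replicate 1 or without siSOX17 replicate 1, and 7 without siSOX17 replicate 2.

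Signalling targets of the TGF-beta, Wnt and YAP pathways gave members in both directions. Of 27 TGF-beta and BMP response genes, 12 rose, 4 fell and 11 did not pass, against 7.85% higher and 7.82% lower over all genes. GREM1, a secreted BMP antagonist, had 3.43 and 4.30 CPM in siDual, against 0.871 and 1.46 CPM in siSOX17 (log2 fold change 1.74 ± 0.24, edgeR adjusted p = 4.27e-05). The controls had 10.8 to 25.2 CPM, and GREM1 fell in siPAX8, by 0.67. ID3, an inhibitor of basic helix-loop-helix factors and a target of BMP signalling, had 87.0 and 105 CPM in siDual and 46.7 and 47.6 CPM in siSOX17. The signal transducer gene SMAD3 fell by 0.82. The count of lower members was 2 without siDual replicate 1 or siDual replicate 2, and 1 without siSOX17 replicate 2. Of 21 Wnt response genes, 3 rose and 4 fell, and the lower count was 2 without siDual replicate 2 or siSOX17 replicate 1. AXIN2, a feedback inhibitor of Wnt signalling, had 3.43 and 3.53 CPM in siDual, against 0.871 and 1.11 CPM in siSOX17 (log2 fold change 1.81 ± 0.17, edgeR adjusted p = 3.47e-07). The controls had 6.93 to 7.31 CPM, and the PAX8 pool alone gave a log2 effect of 0.23 that did not pass the test (edgeR adjusted p = 0.0611). Of 24 YAP and TEAD targets, 8 rose and 5 fell. ANKRD1, a nuclear ankyrin repeat protein, had 573 and 602 CPM in siDual and 235 and 220 CPM in siSOX17. F3, tissue factor, had 135 and 160.1 CPM in siDual and 67.3 and 74.8 CPM in siSOX17. The count of lower YAP and TEAD targets was 3 without siDual replicate 1, siDual replicate 2 or siSOX17 replicate 2.

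Among CDK inhibitors and p53 targets, 4 of 24 rose and 3 fell, against 7.85% and 7.82% of all genes. The higher count was 2 without siDual replicate 1 or siSOX17 replicate 1, and the lower count was 1 without siDual replicate 1. GDF15, a stress-induced cytokine of the TGF-beta family, had 80.9 and 60.1 CPM in siDual, against 328 and 226 CPM in siSOX17 (log2 fold change -1.98 ± 0.16, edgeR adjusted p = 6.29e-08). The siPAX8 libraries had 227 and 189 CPM and the controls 215 to 323 CPM, so siDual lay below the libraries of all these groups. CDKN1A, which encodes the CDK inhibitor p21 and was singled out after its values were seen, had 44.2 and 45.2 CPM in siDual and 42.1 and 40.2 CPM in siSOX17 and did not pass the test. Both groups were above the 8.42 to 10.0 CPM of the controls.

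Angiogenesis regulators had 12 of 34 members higher and 7 lower, against 7.85% higher and 7.82% lower over all genes. NRP2, a co-receptor for semaphorins and VEGF, had 4.26 and 5.11 CPM in siDual, against 1.97 and 1.57 CPM in siSOX17. The lower count was 3 without siDual replicate 1 or siDual replicate 2, 4 without siSOX17 replicate 1 and 2 without siSOX17 replicate 2. Among 10 connexins, which form gap junctions, GJA5 rose, with 12.4 and 10.4 CPM in siDual and 3.71 and 2.97 CPM in siSOX17. GJB2 fell, with 29.7 and 26.7 CPM in siDual and 48.9 and 56.6 CPM in siSOX17. In all, 3 connexins rose and 4 fell, and the lower count was 1 without siDual replicate 1 or siSOX17 replicate 2, and 2 without siDual replicate 2 or siSOX17 replicate 1. Of 9 metallothioneins and zinc response genes, 5 fell and none rose in the main edgeR fit or by DESeq2. At an unadjusted edgeR p under 0.05, 1 was higher. With upper-quartile scaling, a 1 CPM filter or a replicate block in edgeR, 1 of the 9 was called higher. MT2A, the most abundant of them, had 585 and 505 CPM in siDual and 781 and 860 CPM in siSOX17 (log2 fold change -0.59 ± 0.13, edgeR adjusted p = 0.00447). The metallothionein genes are close copies whose reads the counting may have divided, and the lower count was 3 without siDual replicate 2.

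None of 13 mitochondrially encoded genes was called with the PAX8 pool added to SOX17 knockdown by edgeR or DESeq2. None was under an unadjusted edgeR p of 0.05, and their median was -0.01. All 13 rose in siPAX8 against the controls, where 26.9% of all genes rose. The share of counts from mitochondrially encoded genes was above the controls in siMECOM and siWT1 too, so a higher level was not particular to the PAX8 pool. In siDual against siSOX17, 7.85% of all genes rose and 7.82% fell. Of 30 ribosome biogenesis genes, 6 fell and none rose (none by DESeq2 or at an unadjusted edgeR p under 0.05), led by RRP12, which had 74.8 and 82.2 CPM in siDual and 129 and 155 CPM in siSOX17. Of 33 glycolysis and hypoxia genes, 4 rose and 4 fell, and the higher count was 0 without siDual replicate 1 or siSOX17 replicate 1 and 2 without siSOX17 replicate 2. The lower count was 2 without siDual replicate 2, siSOX17 replicate 1 or siSOX17 replicate 2. Of 27 genes of amino acid and unfolded protein stress, 3 rose and 2 fell, near those shares, and ATF3, a stress-induced factor, had 5.22 and 3.6 CPM in siDual and 10.5 and 8.54 CPM in siSOX17. The lower count of that list was 1 without siDual replicate 1, siDual replicate 2 or siSOX17 replicate 2.

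**Figure D4:**
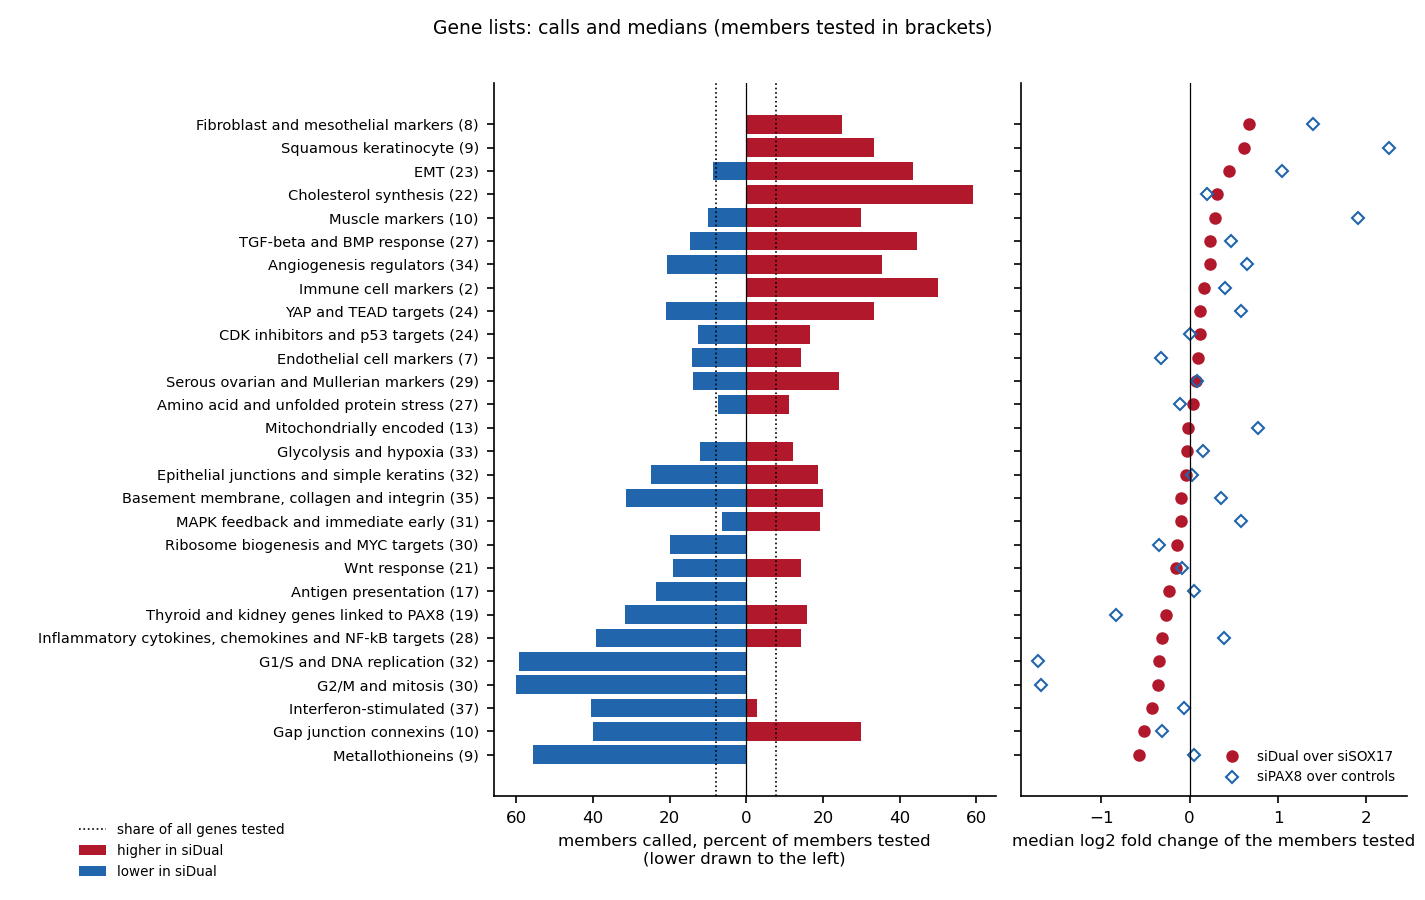
For each gene list, the left panel gives the percentage of tested members called higher (right) or lower (left) in siDual than in siSOX17, with dotted lines at the share of all genes tested, and the right panel gives the median log2 fold change for siDual over siSOX17 and for siPAX8 over controls. The G1/S and G2/M lists have 59.4% and 60.0% of members called, all lower, with medians of -0.34 and -0.36 in siDual over siSOX17 and of -1.71 and -1.68 in siPAX8 over controls.

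Markers of other cell types ranged from absent to well detected. Of 10 immune markers, 3 (CD3D, MS4A1 and FCGR3A) were at 0 counts in all 4 libraries and 1, CD68, reached 1 CPM, at 43.8 and 41.2 CPM in siDual and 35.6 and 34.3 CPM in siSOX17. The immune markers summed to 44.4 and 41.6 CPM in siDual and 35.9 and 34.9 CPM in siSOX17. Of 10 endothelial markers, EMCN was at 0 counts and 4 reached 1 CPM, PECAM1 rose by 1.53 and CDH5 fell by 0.63, and they summed to 13.6 and 13.5 CPM in siDual and 12.9 and 12.9 CPM in siSOX17. Of 10 fibroblast and mesothelial markers, 3 reached 1 CPM, of which 2 were at 10 CPM or more in all 4 libraries, LUM rose by 1.85 and COL1A1 by 0.31, and they summed to 160 and 129 CPM in siDual and 170 and 150 CPM in siSOX17. Of 10 muscle genes tested, 3 rose and CRYAB fell, against 7.85% higher and 7.82% lower over all genes. TNNT2, cardiac troponin T, had 10.99 and 9.90 CPM in siDual and 4.28 and 4.86 CPM in siSOX17. The count of higher muscle genes was 1 without siDual replicate 2 or without siSOX17 replicate 1. Without 1 library the calls of CD68 (each of the 4 libraries), CDH5 and COL1A1 (siDual replicate 1, siSOX17 replicate 1) and LUM (siDual replicate 2, siSOX17 replicate 1, siSOX17 replicate 2) were lost, at edgeR adjusted p from 0.0505 to 0.237, while that of PECAM1 held. The part of these markers in the results was not tested.

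The changes made by the PAX8 pool with SOX17 knockdown went mostly the same way as those made without it. The comparisons of siDual with siSOX17 and of siPAX8 with controls share no library. Of the 3297 genes called in siDual against siSOX17, 2654 were also called in siPAX8 against controls, 2469 in the same direction and 185 in the opposite direction, and 643 were called only with SOX17 knockdown. The 1321 genes that rose in both were 80.0% of those that rose in siDual and 23.4% of those that rose in siPAX8. The 1148 genes that fell in both were 69.8% of those that fell in siDual and 21.5% of those that fell in siPAX8. Among all genes tested, 26.9% rose and 25.4% fell in siPAX8 against controls. In siDual against siSOX17, 7.85% rose and 7.82% fell. Across the 21032 genes the log2 effects had a Pearson correlation of 0.482 and a Spearman correlation of 0.463, with a slope of 0.34 for the effect with SOX17 knockdown on the effect without it. The points of this correlation are genes, which are not independent, so it carries no p. It was 0.137 with no filter on low counts and 0.583 with a filter of 1 CPM in 2 libraries, and 0.417, 0.415 and 0.43 without siDual replicate 2, siSOX17 replicate 1 and siSOX17 replicate 2. As a root mean square of log2 differences over genes, siDual was as far from siSOX17 (0.49) as from siPAX8 (0.488), while siSOX17 and siPAX8 were 0.703 apart.

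**Figure D5:**
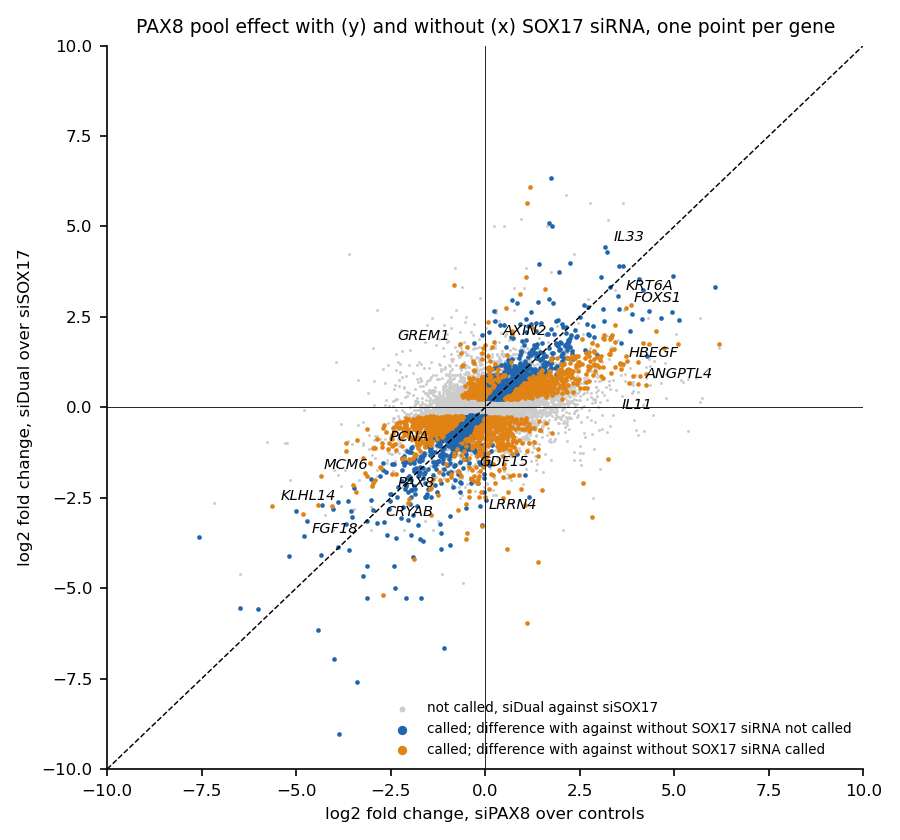
Log2 fold change of siDual over siSOX17 (vertical) against that of siPAX8 over controls (horizontal) for the 21032 genes tested, with the dashed line where the effects are equal. Blue and orange points are genes called in siDual against siSOX17, orange where the difference between the effects with and without SOX17 knockdown was also called, and most called genes lie at the lower left and upper right, flatter than the dashed line, which the slope of 0.34 describes.

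The difference between the effects was tested for every gene, and 5270 genes passed (25.1%), 2530 with a positive (12.0%) and 2740 with a negative value. The comparison of siPAX8 with controls sets a targeting pool against non-targeting pools, while siDual and siSOX17 both received a targeting pool. The part of this in the differences was not tested. The called difference was at least 2-fold in the positive direction in 3.19% of genes and in the negative direction in 4.50%. Of the 3297 genes called in siDual against siSOX17, 1477 (44.8%) had a called difference. KLHL14 fell less with SOX17 knockdown, with a difference of 2.91, and FGF18 fell less by 1.87. GDF15, TNF and LRRN4 fell more with SOX17 knockdown, with differences of -1.60, -1.10 and -2.22. GREM1 and FN1 went in opposite directions and were called in both comparisons, with GREM1 at 1.74 with SOX17 knockdown and -0.67 without it. FN1 was at -1.03 with SOX17 knockdown and 0.55 without it.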

How the data were processed

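Whole-number read counts per gene on hg38 were deposited by the authors, who used STAR 2.5.1b and featureCounts 1.6.3 per the submitters' processing notes. Settings, strand and annotation release are not given in the sources used here. A deposited column of gene length, another kind of value from the authors' counting, was not used. Names and positions came from GENCODE 29, which matched 57878 of 58219 genes. No 2 libraries held identical values.

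In edgeR 4.0.16, genes were kept by filterByExpr (at least 10 counts, total at least 15) and libraries scaled by TMM. All 7 groups of 2 libraries entered 1 quasi-likelihood fit with no intercept (7 residual degrees of freedom, biological coefficient of variation 7.57%). The contrasts were siDual minus siSOX17, siPAX8 minus the mean of siNT1 and siNT2, and the difference of the 2. Benjamini-Hochberg adjustment ran over all 21032 genes, with calls under 0.05. Standard errors were derived from each log2 fold change and its F statistic.

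Named genes were the targeted factors, the 12 largest protein-coding changes each way (mean log2 CPM of at least 1, groups apart), the 3 largest lncRNA changes each way, up to 2 members a direction from each of 29 lists, and the 5 largest differences each way. Some others were named after their values were seen, and a few genes are not reported here. The members, lists and rule were chosen with earlier results of these data known. In simulated counts, 82.0% of 2-fold and 99.0% of 4-fold changes were recovered for siDual minus siSOX17, with 11 false calls among 20185 unchanged genes. Changes were placed only in genes above a minimum level, with spreads taken from the fit, so recovery near the detection limit is unknown. Alternatives were DESeq2 1.42.0, other scalings and filters, a replicate block, each control pool alone, the 4 libraries alone and each library left out.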

Additional observations from a re-analysis of the deposited data

Results flagged for a closer look

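The effect of the PAX8 pool differed between cells with and without SOX17 knockdown in 5270 genes (edgeR adjusted p under 0.05), 25.1% of the 21032 tested. The named genes among them are given here, each with the log2 effect with SOX17 knockdown minus that without it. No explanation was tested.

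In 7 genes the effects were called in opposite directions. The matrix and signalling genes FN1, TNC and DUSP5 (fibronectin, tenascin C and an ERK phosphatase) fell with SOX17 knockdown and rose without it, at -1.57, -1.53 and -0.65. The endothelial cadherin gene CDH5 and the peptide transporter gene TAP1 did likewise, at -2.08 and -1.33. GREM1, a BMP antagonist, and FGF9, a growth factor, rose with SOX17 knockdown and fell without it, at 2.41 and 2.15.

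Another 9 genes were called only with SOX17 knockdown. AXIN2, the Wnt feedback gene, rose, at 1.58. LRRN4 fell, at -2.22, as did the integrin gene ITGB8 at -1.07, the chemokine gene CXCL8 at -1.34 and the death receptor gene FAS at -0.60. The metallothionein genes MT1G and MT1M, close copies whose reads may be divided, were at -3.21 and -1.15, and NUAK2 and WWC1, YAP pathway genes, at -0.65 and -0.59. Called only without SOX17 knockdown were IL11 at -3.60, the kinase gene TXK at 3.49 and the forkhead gene FOXQ1 at 2.85. SOX17, at 0.69, and MECOM, at 0.56, completed that group. In siDual against siSOX17, TXK had a log2 fold change of 0.40 ± 0.56 and FOXQ1 of 0.58 ± 0.55. These standard errors were near the 0.56 of WT1, which was close to the detection limit. Whether low levels of TXK and FOXQ1 in siSOX17 left room for a further fall was not tested. SOX17 was itself the target of a pool in siDual and siSOX17.

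In 10 genes the effect was called both ways in the same direction and was larger with SOX17 knockdown. Those that fell were GDF15 at -1.60, TNF at -1.10, RAPGEF3 at -0.53, CCND1 at -0.53 and the lncRNA AC004241.1 at -0.61. Those that rose were the lncRNA SENCR at 2.52, SOX5 at 1.38, FLI1 at 1.34, CSPG4 at 0.94 and INSIG1 at 0.65.

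In the other 42 genes described genes the direction was the same and the effect smaller with SOX17 knockdown. Among genes that fell, the cell cycle genes MCM6, CCNA2, PCNA and CDC25B were at 1.83, 1.73, 1.63 and 1.04. KLHL14 was at 2.91, LRRC61 at 2.69, the connexin gene GJB2 at 2.49, the carbonic anhydrase genes CA2 and CA12 at 2.53 and 1.40, and FGF18 at 1.87. The lncRNAs AC012123.1 and CCDC183-AS1 were at 1.70 and 1.09, AGMAT at 1.32, NOP56 at 0.74, ITGB3 at 0.63 and WNT7A at 0.56.

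Among genes that rose, secreted factors and transporters had large differences, with ANGPTL4 at -3.40, the nucleoside transporter gene SLC28A3 at -3.22, FGF1 at -3.12, the connexin gene GJA5 at -2.40 and HBEGF at -2.36. SPRED3 was at -1.96, CYP1B1-AS1 at -1.82, ITGA2 at -1.81, TNNT2 at -1.68, KLK5 at -1.67 and KRT16 at -1.41. RIPOR2 was at -1.16, A2M at -1.05, LAMA4 at -1.03, PLK3 at -1.002, FOXS1 at -0.97, F3 at -0.95 and GBP2 at -0.90. NRP2 was at -0.88, KRT8 at -0.69, LINC01411 at -0.68, DNAJB9 at -0.58, CD68 at -0.55, ANKRD1 at -0.53, COL5A1 at -0.48 and COL1A1 at -0.47.

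Some of these differences did not hold without a library. MECOM was lost without any of the 10 libraries of the contrast (edgeR adjusted p from 0.0505 to 0.142). Without siDual replicate 1, A2M, AGMAT, LINC01411, AC012123.1, FAS, CXCL8 and INSIG1 were lost (0.0566 to 0.27), and without siDual replicate 2, FOXS1, RAPGEF3, LINC01411 and COL5A1 (0.0531 to 0.149). Without siSOX17 replicate 1, A2M, FOXS1, AGMAT, LINC01411, FAS and NRP2 were lost (0.0545 to 0.119), and without siSOX17 replicate 2, A2M, AGMAT, LINC01411, FAS, COL5A1 and LAMA4 (0.0504 to 0.127). Without siPAX8 replicate 1, FOXS1, KRT8 and MT1G were lost (0.0565 to 0.117), and without siPAX8 replicate 2, A2M, AGMAT, LINC01411, AC012123.1, FAS, COL5A1, NRP2 and CXCL8 (0.0544 to 0.214). Without siNT1 replicate 1, A2M, FOXS1, AGMAT, LINC01411 and COL5A1 were lost (0.0512 to 0.0732), without siNT1 replicate 2 FAS (0.0549), without siNT2 replicate 1 AGMAT, LINC01411 and COL5A1 (0.0503 to 0.0546), and without siNT2 replicate 2 A2M (0.0589). Against siNT1 alone, the differences of CCND1, ANKRD1, MT1M and LINC01411 were not called (0.543, 0.0871, 0.86 and 0.372), nor were those of MECOM, A2M, AGMAT, FAS and COL5A1 (0.0529 to 0.114). Against siNT2 alone, those of MECOM, A2M, FOXS1, RAPGEF3 and COL1A1 were not called (0.0522 to 0.183). DESeq2 did not call those of MECOM, AGMAT and CXCL8 (0.0628 to 0.2).

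The groups above also rest on the calls in siDual against siSOX17, and some of those were lost without a library. Without siDual replicate 1, CA2, FAS, TAP1, CXCL8, MT1G, CD68, CDH5 and COL1A1 were lost (edgeR adjusted p from 0.0502 to 0.359). Without siDual replicate 2, CA2, SLC28A3, FGF1, FGF9, SPRED3, DNAJB9, MT1G and CD68 were lost (0.0603 to 0.199). Without siSOX17 replicate 1, CA2, SLC28A3, FGF1, FGF9, SPRED3, CXCL8, MT1G, CD68, CDH5 and COL1A1 were lost (0.0622 to 0.169), and without siSOX17 replicate 2, CA2, CXCL8, MT1G and CD68 (0.0866 to 0.224). The CXCL8 call was also lost with upper-quartile scaling (0.0509), a 1 CPM filter (0.058) and DESeq2 (0.196), that of FGF1 with DESeq2 (0.118), and that of CD68 with no filter (0.106) and without mitochondrially encoded genes (0.0539).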

How the results depend on the processing

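No named gene's log2 fold change that was called changed direction under the alternatives run. The median over all genes, 0.00717, lay near 0 and was -0.000802 without mitochondrially encoded genes, -0.000394 with the 4 libraries alone and -0.00195 without siDual replicate 2. The number of genes called in siDual against siSOX17 was 3297, and from 1822 to 2341 with a library left out (873 to 1183 higher, 949 to 1269 lower, and 539 to 651 at 2-fold or more). A lone sample was then assumed to vary like the other groups. The lowest counts were without siDual replicate 2 (1822, with 873 higher and 949 lower), while siSOX17 replicate 1 left 988 higher and siSOX17 replicate 2 left 2081 (1012 higher and 1069 lower). DESeq2 called 3054 (1499 higher and 1555 lower), with 570 at 2-fold or more against 741. The 4 libraries alone gave 3333, no filter 3408 (1576 higher and 1832 lower), upper-quartile scaling 3316 and a 1 CPM filter 3225. The difference between the effects was called in 4235 to 5165 genes with a library left out, and siPAX8 against controls in 8834 to 10478. The PAX8 log2 fold change was -2.42 to -2.36. Of the 118 named genes, 100 to 108 kept their side of the threshold in siDual against siSOX17 with 1 of the 4 libraries left out, and 111 of those DESeq2 gave a value for under DESeq2. The correlation of effects was 0.415 to 0.482 with a library left out, 0.137 without a filter and 0.583 with a 1 CPM filter. A replicate number block called 3970 (2036 higher and 1934 lower) and 6033 differences. Same-numbered libraries shared only a number, with correlations of their deviations from -0.018 to 0.161 between groups. With 2 libraries a group, 82.0% of simulated 2-fold changes were recovered, so smaller changes can be missed. Recovery in genes near the detection limit was not measured.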
